A study of Mus musculus with 8 samples.

Results

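Glutamate and GABA are the main excitatory and inhibitory transmitters of the brain, and their receptors fall into a few families. The ionotropic glutamate receptors (AMPA, kainate and NMDA types) are cation channels built of 4 subunits, the metabotropic glutamate receptors signal through G proteins, and GABA-A receptors are chloride channels built of 5 subunits. In the embryonic cortex these receptors are best known from young neurons and their progenitors, where they act before most synapses form. The 32 genes described here are those whose annotated symbol begins with Gria, Grik, Grin, Grm or Gabr and ends in a numbered subunit, out of 18193 genes measured. They comprise 4 AMPA, 5 kainate, 6 NMDA, 6 metabotropic and 11 GABA-A subunit genes.

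The samples were GFP-positive cells sorted from the cortex or the lungs of homozygous Tie2-GFP mouse embryos at E13.5, the age in days after mating. In these mice the promoter of Tek (Tie2), a receptor of endothelial cells that some blood cells also carry, drives the fluorescent protein. Cortex had been freed of meninges and choroid plexus, and each array held the pooled cells of a litter of 10 to 13 embryos. The study had 4 litters and each tissue 4 such arrays. The arrays carry the numbers 72, 22, 19 and 18 in both tissues, so arrays of the same number are likely from the same litter, though no label says what the number stands for. Values from a fit with the number as a block are given where they change a call. Both groups are of the same genotype, and no untreated or wild-type group applies. Values are log2 intensities after RMA, an array normalization that sets background, scales arrays to one distribution and summarises the probes of each probe set.

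The sorted cortex cells carried neural transcripts beside endothelial ones. Of 16 measured pan-neuronal markers 15 rose in cortex (14 with the array number as a replicate block, where Stmn2 was lost). The list averaged 10.70 to 11.41 per cortex array against 6.94 to 7.26 per lung array. All 11 measured markers of radial glia and neural progenitors and all 7 of cortical excitatory neurons rose in cortex, as did 8 of 9 interneuron markers, while Lhx6, the ninth, rose in lung. The mean of 25 pan-endothelial markers ran from 9.61 to 11.42 in cortex and from 11.42 to 11.86 in lung, and it was lower on cortex arrays 72 (9.95) and 18 (9.61) than on 22 (11.27) and 19 (11.42). Of the 25, 6 rose in lung and 0 in cortex. With the replicate block 8 rose in lung, Tek (limma, adjusted p = 0.0260) and Pecam1 (0.0176) being gained. For Tek the mean log2 value was 11.70 ± 0.84 in cortex and 12.93 ± 0.28 in lung (SD, n = 4 each, as for every such value here). Of 11 measured microglia and leukocyte markers 5 rose in cortex (8 with the array number as a replicate block), and that list's mean ran from 5.91 to 8.78 in cortex and from 5.02 to 6.31 in lung. Of 7 measured markers of autonomic neurons and neural crest 1 rose in cortex and 0 in lung, with list means of 5.26 to 5.47 in cortex and 4.90 to 5.36 in lung. Of all 18193 genes 10.4% rose in cortex and 7.71% in lung, so that 1 of 7 (14.3%) was near the share of all genes. Of single markers, the neuronal tubulin gene Tubb3 lay at 12.70 ± 0.45 and 5.47 ± 0.50, Sox2 of neural progenitors at 11.33 ± 0.21 and 4.42 ± 0.45, and the endothelial adhesion gene Pecam1 at 8.98 ± 1.06 and 10.46 ± 1.03 in cortex and lung. No value on these arrays is 0, so no marker can be said to be absent. Each receptor result below was measured beside these transcripts, and their part in it was not tested. In sorted pools, fewer cells of a type and less RNA per cell cannot be told apart. The description field of 4 samples names the other tissue than their title, and the Hox gene Hoxa5 went with the titles, at 10.35 to 10.71 on arrays titled lung and 5.84 to 7.62 on arrays titled cortex.

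Of the 32 receptor genes 11 rose in cortex and 0 in lung with a limma p under 0.05 after Benjamini-Hochberg adjustment over all genes, while 21 were not called. Over all 18193 genes 18.1% were called, and the share called higher in cortex was 10.4% and the share called higher in lung 7.71%, against 34.4% and none of the receptor genes. At an unadjusted p under 0.05, 13 receptor genes were higher in cortex and 1 was higher in lung. The median difference, cortex minus lung, was 0.60 log2 units over the receptor genes and -0.09 over all genes. The receptor families were unlike each other in these counts. All 4 AMPA subunit genes rose in cortex, with 3 of 5 kainate, 1 of 6 NMDA, 0 of 6 metabotropic and 3 of 11 GABA-A subunit genes. The cortex and lung arrays did not overlap for 12 receptor genes, 11 of them higher in cortex, where 24.5% of all genes did not overlap and 12.5% did so with cortex higher. The gene that did not overlap with lung higher was Gabra6, which was not called. Families also differed in brightness. Among genes with a mean over the 8 arrays of at least 6, 21 receptor genes were left and 10 were called higher in cortex, against 14.7% of all such genes. The dimmer receptor genes were Grin2a, Grin2c, Grin3a, Grm8, Gabra4, Gabra5, Gabra6, Gabrg1, Gabrg3, Gabrr1 and Gabrr2. No AMPA or kainate gene was among them, and Gabra4 was the called one. The mean takes in both tissues, so a gene high in cortex alone can pass. Grik3 (9.24 in cortex, 4.49 in lung) and Gabra3 (8.75 and 4.93) passed in this way. The count of 10 and the list of dimmer genes therefore depend in part on the rise in cortex itself. Differences between families, and the part of brightness in them, were not tested.

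**Figure D1:**
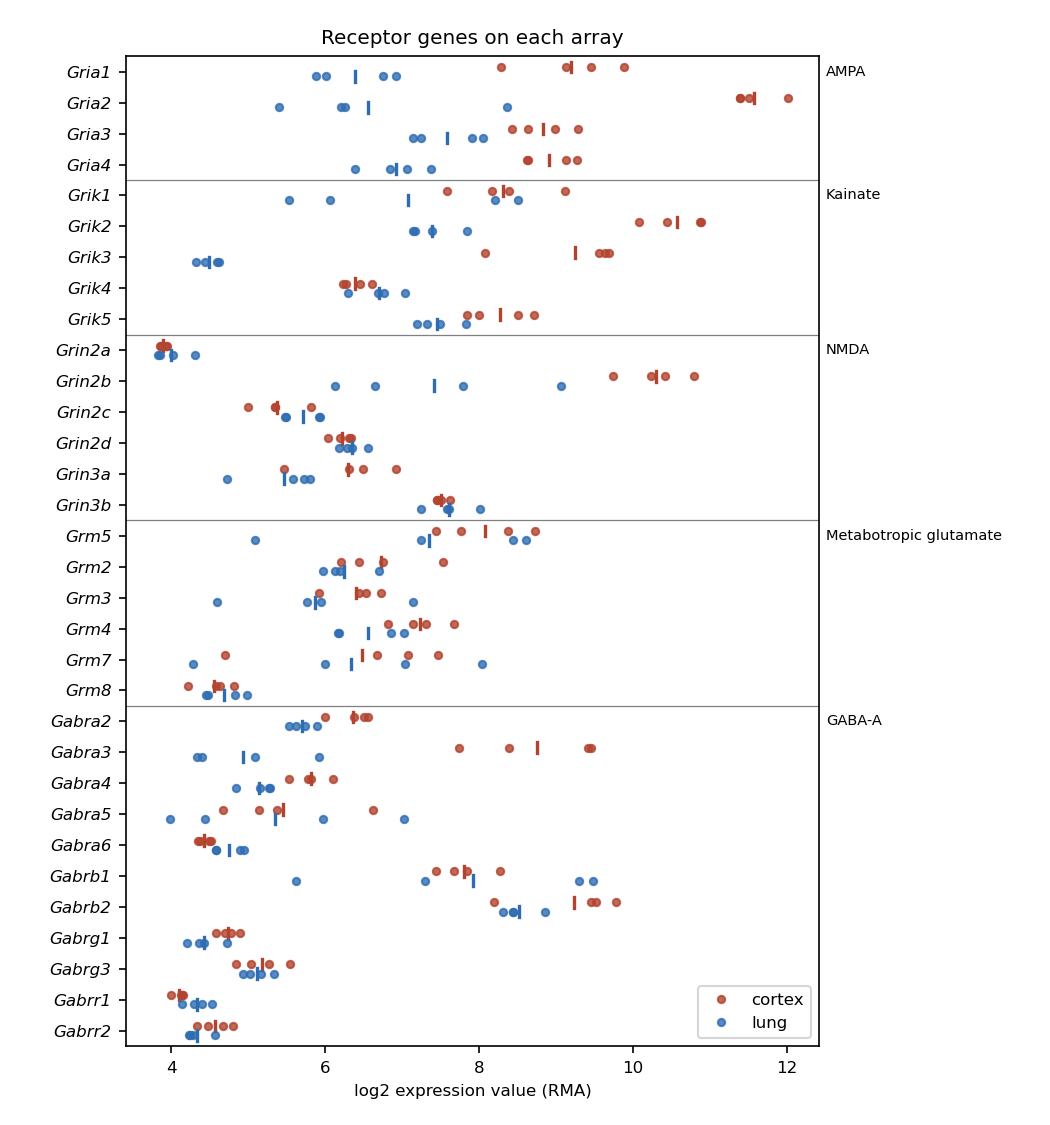
Log2 expression value (x axis) of each of the 32 receptor genes (y axis, grouped by family) on the 4 cortex arrays (red points) and 4 lung arrays (blue points), with a vertical tick at each tissue's mean. All 4 AMPA genes have every cortex array above every lung array, while the lung points of Gabrb1, Grm5, Grm7 and Gabra5 spread over more than 3 log2 units.

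**Figure D2:**
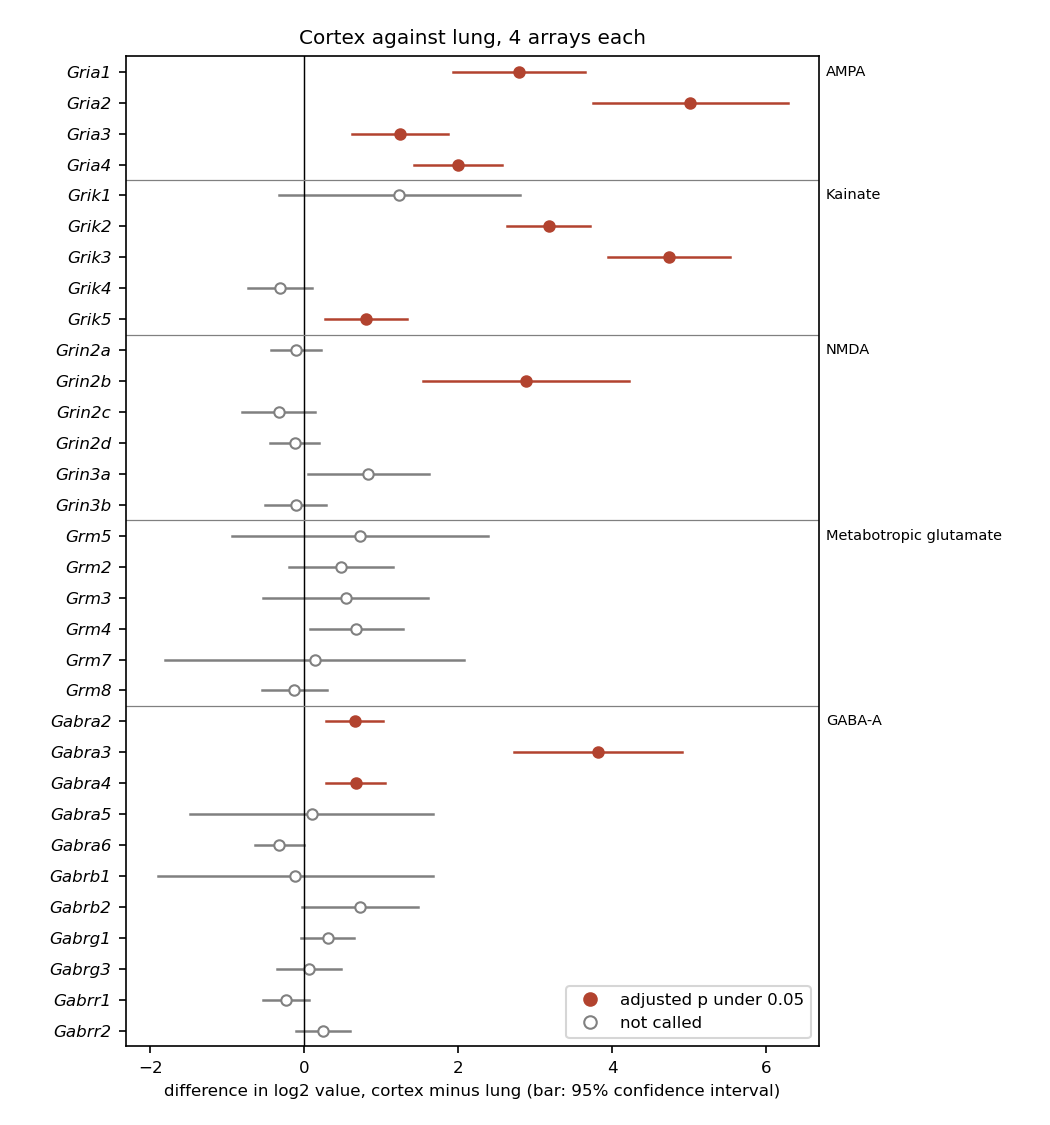
Difference in log2 value, cortex minus lung (x axis), for each receptor gene, with its 95% confidence interval as a bar. Filled red points mark the 11 genes with an adjusted p under 0.05, all to the right of 0, from Gabra2 (0.66) to Gria2 (5.02).

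The genes with the largest rises have start regions of unlike composition, and 4 of these regions are shown for that reason. They are the 250 bases before the start of Gria2 (chr3:80802836-80803085, minus strand), Grik2 (chr10:49788755-49789004, minus strand), Grik3 (chr4:125490446-125490695, plus strand) and Gabra3 (chrX:72656920-72657169, minus strand), from RefSeq's GRCm38.p6 annotation, written 5′ to 3′. Capitals mark CG dinucleotides and, on either strand, the motifs TATAAA and GGACAGC.
Gria2: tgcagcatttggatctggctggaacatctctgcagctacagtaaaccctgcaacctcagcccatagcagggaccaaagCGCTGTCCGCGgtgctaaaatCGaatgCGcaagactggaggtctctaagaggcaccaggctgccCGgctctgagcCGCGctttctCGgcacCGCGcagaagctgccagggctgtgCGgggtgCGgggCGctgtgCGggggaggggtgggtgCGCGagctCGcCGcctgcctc
Grik2: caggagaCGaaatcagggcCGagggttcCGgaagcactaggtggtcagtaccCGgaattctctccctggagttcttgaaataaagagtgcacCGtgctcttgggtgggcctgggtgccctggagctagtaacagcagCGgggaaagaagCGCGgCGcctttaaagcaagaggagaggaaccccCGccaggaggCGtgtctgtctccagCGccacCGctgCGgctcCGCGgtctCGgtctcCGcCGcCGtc
Grik3: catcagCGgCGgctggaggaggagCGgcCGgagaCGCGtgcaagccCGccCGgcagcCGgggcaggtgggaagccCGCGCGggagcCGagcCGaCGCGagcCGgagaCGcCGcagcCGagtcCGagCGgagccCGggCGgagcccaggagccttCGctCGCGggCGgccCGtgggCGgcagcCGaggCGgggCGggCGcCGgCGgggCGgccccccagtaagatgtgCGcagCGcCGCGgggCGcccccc
Gabra3: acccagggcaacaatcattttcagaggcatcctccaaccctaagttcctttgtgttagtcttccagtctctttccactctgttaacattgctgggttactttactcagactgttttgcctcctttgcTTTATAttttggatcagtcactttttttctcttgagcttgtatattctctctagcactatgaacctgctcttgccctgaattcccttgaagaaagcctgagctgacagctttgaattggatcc
CG dinucleotides, the sites of DNA methylation, numbered 42 before Grik3, 20 before Grik2, 19 before Gria2 and 0 before Gabra3, whose other annotated start also held 0. Grik4, which was not called, held 36. The median over 32851 such windows of the mouse annotation was 6, and 7.87% of them held none. The G and C share was 82.0% before Grik3 and 42.4% before Gabra3. GGACAGC is part of the element bound by REST, a repressor of neuronal genes outside the nervous system. It was found on either strand in 5.28% of all windows, before Gria2 and, among the 24 receptor genes with a window, also before Grm2, which was not called. The exact letters of the adjoining part of that element, TTCAGCACC, were found before Grm2 alone of these 24 and in 0.301% of all windows. Inexact copies were not counted. In the Gria2 window the bases next to GGACAGC, read on the strand that carries it, matched TTCAGCACC in all but 1 letter. Gria2 is thus not shown to lack this part. TATAAA was found before Gabra3, Gabrb2 and Grin3b and in 12.4% of all windows. The E-box letters CANNTG, which are bound by factors of neuronal differentiation, were found for 12 of the 24 genes and in 66.2% of all windows, 4 of the 12 being called genes.

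AMPA receptors carry the fast excitatory current of most synapses, and their 4 subunit genes, Gria1 to Gria4, all rose in cortex. Gria2 encodes the subunit whose RNA-edited pore keeps the channel nearly closed to calcium. It lay at 11.50, 11.39, 11.39 and 12.004 on cortex arrays 72, 22, 19 and 18, and at 5.40, 6.25, 6.20 and 8.36 on the lung arrays in the same order. It was 32.4-fold higher in cortex (difference 5.02 ± 0.55, SE; adjusted p = 0.000394, limma). The cortex arrays lay within 0.62 of each other, whereas lung 18 stood more than 2 log2 units above the other lung arrays. Gria1 lay at 9.45, 8.28, 9.13 and 9.89 in cortex and at 5.88, 6.75, 6.01 and 6.92 in lung (6.94-fold, adjusted p = 0.00116). Gria4, a subunit prominent early in development, lay at 9.12, 8.63, 8.62 and 9.27 in cortex and at 6.38, 7.06, 6.84 and 7.38 in lung (3.99-fold, adjusted p = 0.000787). For both genes every cortex array stood above every lung array, and lung 18 was the highest of the lung arrays. Gria3 had the smallest difference of the family, at 9.28, 8.43, 8.63 and 8.98 in cortex and 7.90, 7.13, 8.05 and 7.25 in lung (2.37-fold, adjusted p = 0.0141). Its order within lung was another one, with 72 and 19 above 22 and 18, and its call ended when both lung arrays 22 and 18 were left out (0.85 log2 units, adjusted p = 0.0761).

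Kainate receptors act on both sides of the synapse and modulate transmitter release. Grik1, Grik2 and Grik3 encode the subunits that form channels of their own, and Grik4 and Grik5 encode partner subunits. Grik2 lay at 10.86, 10.43, 10.08 and 10.88 in cortex and at 7.14, 7.17, 7.39 and 7.84 in lung (9.07-fold, adjusted p = 4.56e-05). Grik3 lay at 9.56, 8.07, 9.69 and 9.63 in cortex and at 4.62, 4.59, 4.44 and 4.32 in lung (26.8-fold, adjusted p = 4.31e-05). Cortex 22 stood below the other cortex arrays for Grik3, and the lung arrays lay within 0.30 of each other. Grik5 rose by a smaller margin, at 8.50, 7.85, 8.0 and 8.71 in cortex and 7.49, 7.19, 7.33 and 7.83 in lung (1.75-fold, adjusted p = 0.0444). Highest lung and lowest cortex arrays of Grik5 almost met. Leaving out any 1 array other than cortex 22 and lung 18 ended its call (adjusted p = 0.0506 to 0.114), as did centring the arrays on their medians (0.73 log2 units, adjusted p = 0.0663) or repeating quantile normalization (0.69 log2 units, adjusted p = 0.0965). Grik1 was not called, at 8.39, 7.59, 8.16 and 9.11 in cortex and at 5.52, 8.21, 6.06 and 8.50 in lung (difference 1.24, 95% confidence interval -0.33 to 2.81, adjusted p = 0.261). Lung 22 and 18 lay within the range of the cortex arrays for Grik1 and lung 72 and 19 below it, and without lung 22 and 18 the gene was called (2.52 log2 units, adjusted p = 0.00996). Array quality weights also gave a call of Grik1 (1.88 log2 units, limma adjusted p = 0.0308). Grik4 lay at 6.39 ± 0.17 in cortex and 6.69 ± 0.30 in lung (limma, adjusted p = 0.286).

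NMDA receptors need both glutamate and a co-agonist to open and admit calcium, and Grin2b encodes the GluN2B subunit that prevails before birth. Grin2b was the NMDA gene that rose in cortex, at 10.42, 9.73, 10.23 and 10.79 against 6.13, 9.07, 6.65 and 7.79 in lung (7.38-fold, adjusted p = 0.0102). Lung 22 came within 0.67 of the lowest cortex array, and the lung arrays spanned 2.94 log2 units. Without lung 22 and 18 the difference was 3.90 log2 units (adjusted p = 0.00065). Grin2a, whose GluN2A subunit replaces GluN2B after birth, lay at 3.90 ± 0.04 in cortex and 4.00 ± 0.23 in lung (limma, adjusted p = 0.652). Grin2c, a subunit known from the cerebellum, lay at 5.37 ± 0.34 and 5.70 ± 0.26 (adjusted p = 0.313). Grin2d lay at 6.22 ± 0.14 in cortex and 6.34 ± 0.16 in lung, and Grin3b at 7.50 ± 0.08 and 7.61 ± 0.32, neither called. Grin3a, a subunit that lowers calcium entry, lay at 6.91, 5.47, 6.31 and 6.48 in cortex and 5.72, 4.73, 5.80 and 5.58 in lung (difference 0.84, 95% confidence interval 0.05 to 1.62, adjusted p = 0.137). Cortex 22 was the array that reached into the range of lung for Grin3a, and without it the gene was called (1.11 log2 units, adjusted p = 0.0435), which makes 2 NMDA genes. Grin3a was called with the replicate block too (adjusted p = 0.0228), again making 2.

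Metabotropic glutamate receptors form 3 groups by sequence and coupling, of which the group represented here by Grm5 couples to calcium release, and those of Grm2 and Grm3 and of Grm4, Grm7 and Grm8 lower cyclic AMP. Of these 6 genes 0 were called by limma, 1 had an unadjusted p under 0.05 (Grm4), and 1 was called with array quality weights (Grm4, 0.90 log2 units, adjusted p = 0.0221). Grm4 lay at 7.31, 6.81, 7.68 and 7.15 in cortex and at 6.17, 7.03, 6.17 and 6.86 in lung (difference 0.68, adjusted p = 0.116). Without lung 22 and 18, the 2 lung arrays that reached the cortex range, Grm4 was called too (1.06 log2 units, adjusted p = 0.0329). Grm5, the receptor through which progenitors of the embryonic brain are known to answer glutamate, lay at 7.76, 7.44, 8.38 and 8.72 in cortex and at 5.08, 8.44, 7.25 and 8.61 in lung (limma, adjusted p = 0.525). Grm7 lay at 6.67, 4.69, 7.08 and 7.46 in cortex and at 4.28, 7.04, 6.0 and 8.04 in lung (limma, adjusted p = 0.927), the widest span of any receptor gene in cortex. For Grm5 and Grm7 the ranges of the tissues overlapped, and the intervals of their differences, -0.93 to 2.39 and -1.81 to 2.08, leave a rise or a fall of over 2-fold possible for Grm7 and a rise of over 4-fold for Grm5. Grm3 lay at 6.44, 6.72, 5.92 and 6.53 in cortex and at 4.60, 5.94, 5.76 and 7.14 in lung (limma, adjusted p = 0.468). Grm2 lay at 7.53, 6.20, 6.43 and 6.75 against 5.97, 6.19, 6.12 and 6.70 (adjusted p = 0.304), with cortex 72 apart from the rest. Grm8 lay at 4.56 ± 0.25 in cortex and 4.69 ± 0.26 in lung (limma, adjusted p = 0.674).

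GABA-A receptors usually combine alpha, beta and gamma subunits, and the alpha subunit sets much of their pharmacology. Of 5 measured alpha genes 3 rose in cortex, and of 6 beta, gamma and rho genes 0 were called by limma (0 also at an unadjusted p under 0.05, and 1, Gabrg1, with array quality weights, adjusted p = 0.0479). Gabra3, which encodes an alpha subunit prominent in the fetal brain, lay at 9.45, 7.74, 8.38 and 9.42 in cortex and at 5.92, 4.39, 5.09 and 4.33 in lung (14.1-fold, adjusted p = 0.000818). Cortex 72 and 18, the arrays with the lower pan-endothelial means, were the higher ones for Gabra3, and the lowest cortex array stood 1.8 log2 units above the highest lung array. Not every called gene had this order, and Grik3 and Gabra4 were highest on cortex 19. A relation of any gene to those means was not tested. Gabra2 lay at 6.55, 6.50, 5.99 and 6.37 in cortex and at 5.90, 5.63, 5.53 and 5.74 in lung (1.58-fold, adjusted p = 0.0254). Gabra4 lay at 5.81, 5.78, 6.10 and 5.53 in cortex and at 5.16, 5.28, 4.84 and 5.27 in lung (1.59-fold, adjusted p = 0.0259). Both rises were under 2-fold, and on the mean of its 2 probe sets Gabra4 was not called (0.21 log2 units, limma adjusted p = 0.351). The call of Gabra2 was lost when cortex 72, 22 or 18 or lung 22 or 19 was left out (adjusted p = 0.0623 to 0.0718), and that of Gabra4 when cortex 72, 22 or 19 or lung 19 was (0.0576 to 0.0681) or with the replicate block (0.0766), so that Gabra3 was the GABA-A gene left without cortex 72 or without lung 19. Gabra6, known from cerebellar granule cells, lay at 4.43 ± 0.08 in cortex and 4.75 ± 0.20 in lung (limma, adjusted p = 0.158). Gabra5 lay at 5.13, 4.68, 5.37 and 6.62 in cortex and at 3.99, 7.03, 4.43 and 5.97 in lung (limma, adjusted p = 0.935), with lung 22 above every cortex array.

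The beta subunits complete the GABA binding site, and gamma subunits anchor the receptor at synapses. Gabrb2 lay at 9.78, 8.20, 9.45 and 9.52 in cortex and at 8.44, 8.31, 8.86 and 8.43 in lung (difference 0.72, 95% confidence interval -0.03 to 1.48, adjusted p = 0.175). Cortex 22 lay below every lung array for Gabrb2 and the other cortex arrays above them all, and without it the gene was called (1.07 log2 units, adjusted p = 0.00771). Gabrb1 lay at 7.84, 7.44, 7.67 and 8.27 in cortex and at 5.62, 9.47, 7.30 and 9.30 in lung (limma, adjusted p = 0.934), so that lung 22 and 18 stood above all cortex arrays and lung 72 and 19 below them. Gabrg1 lay at 4.77, 4.70, 4.89 and 4.58 in cortex and at 4.20, 4.42, 4.36 and 4.72 in lung (limma, adjusted p = 0.204), and Gabrg3 at 5.04, 4.84, 5.27 and 5.54 against 5.02, 4.92, 5.16 and 5.34 (adjusted p = 0.834). The rho subunits are known from the retina. Gabrr1 lay at 3.99, 4.15, 4.14 and 4.12 in cortex and at 4.14, 4.52, 4.29 and 4.39 in lung, and Gabrr2 at 4.67, 4.48, 4.33 and 4.80 against 4.22, 4.24, 4.28 and 4.57, neither called (adjusted p = 0.26 and 0.323). Several GABA-A genes are neighbours in the genome. Of the 4 measured on chromosome 5, in the order Gabrg1, Gabra2, Gabra4 and Gabrb1, the middle ones rose and the outer ones were not called. On chromosome 7 (Gabrg3, Gabra5), chromosome 11 (Gabra6, Gabrb2) and chromosome 4 (Gabrr2, Gabrr1) neither measured neighbour was called.

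A set of receptor genes varied widely among the lung arrays. In 8 of the 32 genes (25%) the lung arrays spanned at least 2 log2 units, against 6.43% of all genes, and in cortex this held for 1 receptor gene, Grm7 (3.13%), against 3.34%. The 8 were Gria2, Grik1, Grin2b, Grm5, Grm3, Grm7, Gabra5 and Gabrb1, and in each of them lung 22 and lung 18 were the highest lung arrays. Among the 1169 genes of the whole array with such a span this was so for 472 (40.4%). Lung 18 was the highest lung array for 18 of the 32 receptor genes, and for 29.2% of all genes. These genes were singled out after their values were seen. The pan-neuronal mean was higher on lung 22 (7.20) and 18 (7.26) than on 72 (6.98) and 19 (6.94). Other neural lists were unlike each other on lung 72, 22, 19 and 18. The cortical excitatory neuron mean was 5.09, 5.86, 5.32 and 5.87, and the interneuron mean 5.91, 6.30, 5.80 and 5.96. The radial glia and neural progenitor mean was 5.91, 5.98, 6.04 and 5.67, lowest on 18. Single markers of the pan-neuronal list ranged as widely in lung as the 8 genes. Elavl3 lay at 6.51, 8.89, 7.12 and 9.22 and Syt1 at 4.71, 6.82, 6.31 and 8.32 on lung 72, 22, 19 and 18. Markers of the list also went the other way, lower on 22 and 18. Dcx lay at 7.37, 5.14, 5.64 and 5.53 and Map2 at 6.62, 5.50, 6.75 and 5.54 on the same arrays. Others, such as Gap43, stayed within 0.33. All of these were chosen with their values in view. The median of the 9160 probe sets with no gene name moved the same way as the 8 genes. It was 5.95 on lung 22 and 5.97 on lung 18 against 5.25 on lung 72 and 5.51 on lung 19. The median of probe sets with 1 gene was lower on 22 (6.89) and 18 (6.81) than on 72 (7.18) and 19 (7.06). The mean of 11 lung mesenchyme and fibroblast markers was lower on lung 22 (8.49) and 18 (7.93) than on 72 (10.03) and 19 (9.14), and the mean of 6 markers of oligodendrocyte precursors and astrocytes was higher on 22 (6.28) and 18 (6.44) than on 72 (5.55) and 19 (5.43). Members of the latter list were unlike each other. Aqp4 lay at 4.92, 7.34, 5.49 and 7.51 on lung 72, 22, 19 and 18. Gfap and Olig2 spanned 0.31 and 0.43, and Cspg4 was highest on 72. The part of any of these in the result was not tested.

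The wide span in lung was seen on some probe sets of a gene and not on others. Gabrb1 has 4 probe sets, and the one with values of 5.62, 9.47, 7.30 and 9.30 on lung 72, 22, 19 and 18 stood beside another, 1435095_at, with 6.28, 5.71, 6.01 and 6.06. Grm7's other probe set 1458861_at read 5.75, 5.81, 5.86 and 6.01 on the lung arrays, within 0.26 of each other. For Gria2, 1434146_at read 4.29, 4.60, 4.44 and 4.41, while 1453098_at read 5.91, 8.52, 6.91 and 9.74. Grin2b's 1442370_at read 5.89, 9.92, 6.74 and 8.87, with lung 22 and 18 inside the cortex range of 8.82 to 10.22, whereas 1422223_at and 1431700_at spanned less than 0.5. Over the 6 of these 8 genes that have other probe sets, 3 of 12 others spanned at least 2 log2 units in lung and 9 spanned less. The widest of the 9 was Grm5's 1455272_at, which spanned 1.17. It read 4.45, 4.98, 4.15 and 5.32 on lung 72, 22, 19 and 18, again highest on 22 and 18.

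**Figure D3:**
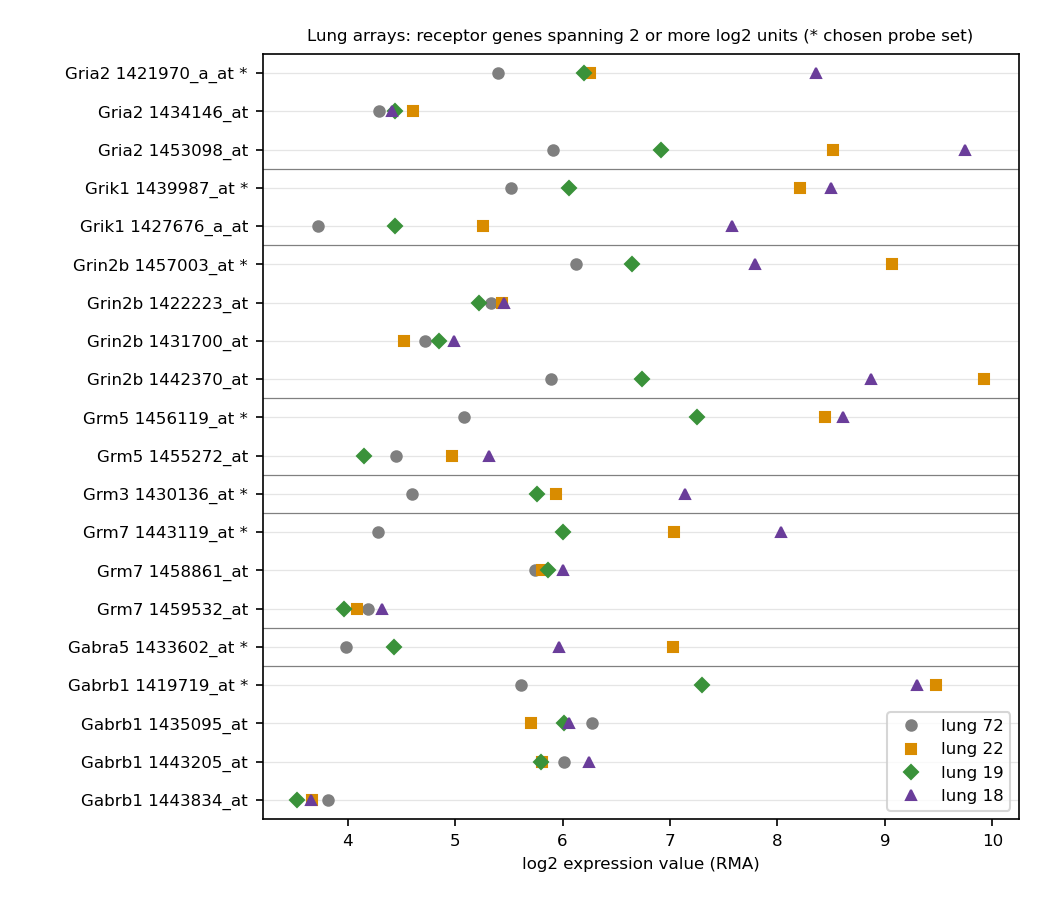
Log2 expression value (x axis) on each lung array for every single-gene probe set (y axis) of the 8 receptor genes whose chosen probe set (asterisk) spanned at least 2 log2 units in lung; symbols mark lung arrays 72, 22, 19 and 18. Squares (22) and triangles (18) lie to the right on the chosen probe sets, and the 4 symbols span less than 2 log2 units on 9 of the 12 others.

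Probe sets of the same gene also differed in the comparison of cortex with lung. The 32 genes have 68 single-gene probe sets, of which 15 were called higher in cortex and 0 in lung when all 45037 probe sets were tested together (limma, Benjamini-Hochberg). Over all 45037 probe sets 5475 were called, in either direction. In that fit 9.3% of the 18193 probe sets chosen for a gene were called higher in cortex, and 10 of the 32 chosen for receptor genes. Of the 11 called genes 10 have other probe sets, and for 5 of these genes another probe set was called too. These were Gria1, Gria2, Gria4, Grik2 and Gabra2. Gria1's other probe set 1435239_at gave a larger difference, at 8.83 ± 0.53 in cortex against 4.04 ± 0.20 in lung (4.79 log2 units, adjusted p = 1.94e-05), as did Gria2's 1434146_at (5.36 log2 units, adjusted p = 1.75e-05), while Gria2's 1453098_at differed by 2.27 and was not called (adjusted p = 0.0867). Gabra2's 1455444_at lay at 6.54 ± 1.25 in cortex and 3.71 ± 0.43 in lung (2.82 log2 units, adjusted p = 0.0139), where the chosen probe set differed by 0.66 and 3 others of Gabra2, not called, by 0.11 to 0.48. Of the 17 other probe sets of called genes 5 were called. Grik3's 1427709_at went in the other direction, at 5.72 ± 0.36 in cortex and 6.03 ± 0.14 in lung. Gabra3's 1421263_at hardly differed, at 4.04 ± 0.17 and 4.00 ± 0.11, and neither probe set was called. The rises of Grik3 and Gabra3 were thus seen on 1 probe set of 2. Gria3's 1420563_at and Grin2b's 1422223_at and 1431700_at likewise differed by 0.11, -0.11 and 0.05 log2 units, Grin2b's 1442370_at differed by 1.83 (adjusted p = 0.21), and Grin2b was not called on the mean of its 4 probe sets (1.16 log2 units, adjusted p = 0.0563). For 9 genes a probe set had the opposite sign to the chosen one, in 0 cases with a call. They were Grik3, Grin2b, Grin2d, Grin3a, Grm7, Gabra4, Gabrb1, Gabrb2 and Gabrg3. For Gabra4 the chosen probe set differed by 0.67 and 1429330_at by -0.25, and for Grin2d the chosen one by -0.12 and 1442328_at by 0.98 (adjusted p = 0.0671). For Gabrb1 the chosen one differed by -0.11 and 1435095_at by 0.94, for Grin3a the chosen one by 0.84 and 1458378_at by -0.10, for Gabrg3 by 0.06 and 1444549_at by -0.71, and for Grm7 by 0.14 and 1458861_at by -0.08. Of the 5 probe sets of Gabrb2, 4 differed by 0.71 to 0.82 and 1450319_at by -0.13.

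**Figure D4:**
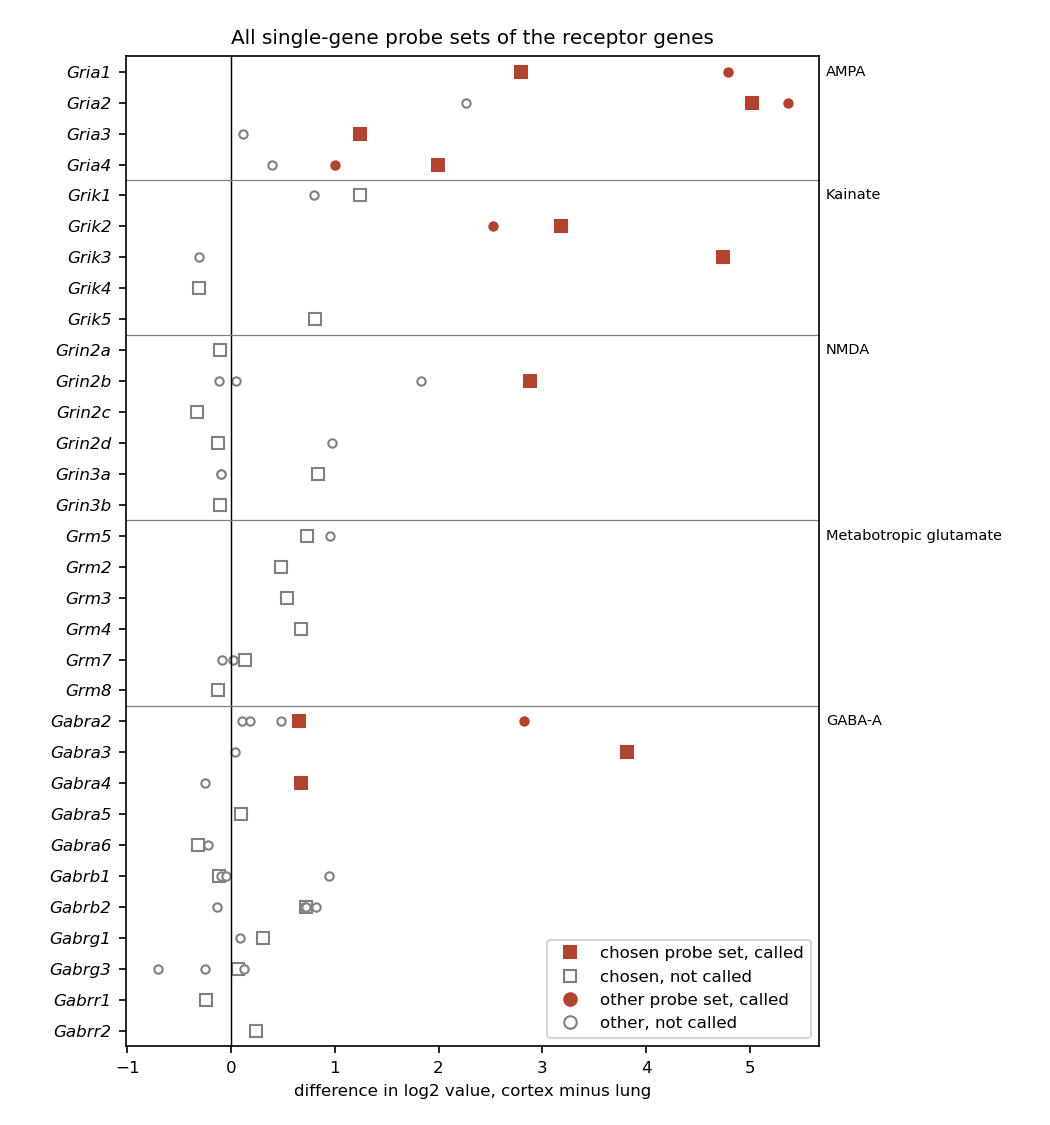
Difference in log2 value, cortex minus lung (x axis), for all 68 single-gene probe sets of the receptor genes; squares are the chosen probe sets and circles the others, filled red where the adjusted p over all probe sets was under 0.05. Gria1, Gria2, Gria4, Grik2 and Gabra2 have filled circles, while the circles of Grik3 and Gabra3 lie near 0.

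Beside the receptors, 81 other measured genes of the transmitter pathways were followed, of which 34 rose in cortex, 3 rose in lung and 44 were not called. The share that rose in cortex was 42.0%. Of all 18193 genes, 10.4% rose in cortex and 7.71% in lung. Among 11 receptor relatives (GABA-B, glycine, delta and remaining GABA-A subunits) 3 rose in cortex and 0 in lung. The glycine receptor subunit gene Glra2 lay at 9.59, 8.29, 8.51 and 9.19 in cortex and at 3.73, 4.14, 3.72 and 4.50 in lung (29.3-fold, adjusted p = 2.45e-05), and its partner Glrb at 7.91, 8.0, 7.36 and 8.29 against 6.04, 6.50, 5.96 and 6.60 (3.06-fold, adjusted p = 0.00191). Gabbr1, a subunit of the GABA-B receptor, was the third, at 11.93 ± 0.20 in cortex and 10.76 ± 0.20 in lung (2.24-fold, adjusted p = 0.00139). The median of these relatives was -0.15, near the -0.09 of all genes. Of 9 genes that make, load or break down the transmitters 4 rose in cortex and 0 in lung, with a median of 1.97. Slc17a6, which loads glutamate into vesicles, was at 11.17 ± 0.36 in cortex and 4.58 ± 0.68 in lung, and Gad1, which makes GABA, lay at 9.80, 8.77, 9.86 and 10.52 against 3.25, 3.58, 3.67 and 3.99 (69.5-fold, adjusted p = 1.29e-05).

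Of 12 uptake genes 5 rose in cortex and 0 in lung, with a median of 0.49. Slc1a3, the glutamate transporter of radial glia, lay at 11.59, 11.07, 10.03 and 11.01 in cortex and at 8.41, 6.83, 7.89 and 6.12 in lung (12.3-fold, adjusted p = 0.00177). Slc38a5, a glutamine carrier, lay at 11.10, 12.61, 12.26 and 10.80 in cortex and at 8.83, 4.90, 6.89 and 4.95 in lung (39.4-fold, adjusted p = 0.00348). As in the pan-endothelial mean, cortex 22 and 19 stood above 72 and 18. Among the 11 called receptor genes cortex 22 was the highest cortex array for 0, cortex 19 for 2, cortex 72 for 3 and cortex 18 for 6. Over all 1888 genes called higher in cortex the shares of these arrays were 13.3%, 5.46%, 50.5% and 30.7%. Of 20 genes for auxiliary subunits and receptor assembly 11 rose in cortex and 0 in lung, with a median of 1.30. Cacng4, an AMPA receptor partner that steers its traffic and gating, lay at 10.14, 9.27, 9.83 and 10.41 in cortex and at 7.19, 6.25, 5.89 and 6.69 in lung (10.6-fold, adjusted p = 0.000197). Lhfpl4, which holds GABA-A receptors at inhibitory synapses, lay at 10.17, 9.16, 9.28 and 9.79 in cortex and at 6.29, 6.36, 6.23 and 7.37 in lung (8.21-fold, adjusted p = 0.000297).

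Of 23 postsynaptic scaffold and trafficking genes 11 rose in cortex and 2 in lung, with a median of 0.80. Dlg2, a scaffold of glutamate receptors, lay at 9.69, 7.91, 8.66 and 9.36 in cortex and at 5.82, 5.61, 5.39 and 6.01 in lung (9.17-fold, adjusted p = 0.000471), and the adhesion gene Nlgn3 at 8.56 ± 0.05 in cortex and 5.60 ± 0.37 in lung (7.76-fold, adjusted p = 2.45e-05). Shank3, a scaffold of excitatory synapses that other cells also express, rose in lung, at 8.98, 9.90, 10.09 and 8.62 in cortex against 11.40, 11.13, 11.38 and 10.85 (3.47-fold, adjusted p = 0.0066). Within cortex Shank3 was higher on 22 and 19, the arrays with the higher pan-endothelial means. Homer3 also rose in lung (1.62-fold, adjusted p = 0.0332), a call lost when any array other than cortex 19 and lung 72 was left out (adjusted p = 0.053 to 0.0831) and with the replicate block (0.0815), which leaves Shank3 as the 1 scaffold gene higher in lung. Of 6 chloride cotransporters, which set the direction of current through GABA-A channels, 0 rose in cortex by limma (2 at an unadjusted p under 0.05, Slc12a5 and Slc12a7) and Slc12a4 rose in lung (2.81-fold, adjusted p = 0.0112). Slc12a5, the extruder of mature neurons, had values of 8.90 ± 0.52 in cortex and 7.26 ± 1.05 in lung (limma, adjusted p = 0.0541; called with the replicate block, 0.0159, as the 1 chloride cotransporter higher in cortex), and Slc12a2, which loads chloride into immature neurons, at 11.00 ± 0.20 and 10.88 ± 0.38 (adjusted p = 0.722). Gabbr1, Slc12a5 and Slc12a2 were named after their values were seen. Many of the genes followed here are themselves neuronal, and the lists overlap with the neural markers in Slc17a6, Gad1, Gad2 and Slc1a3.

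**Figure D5:**
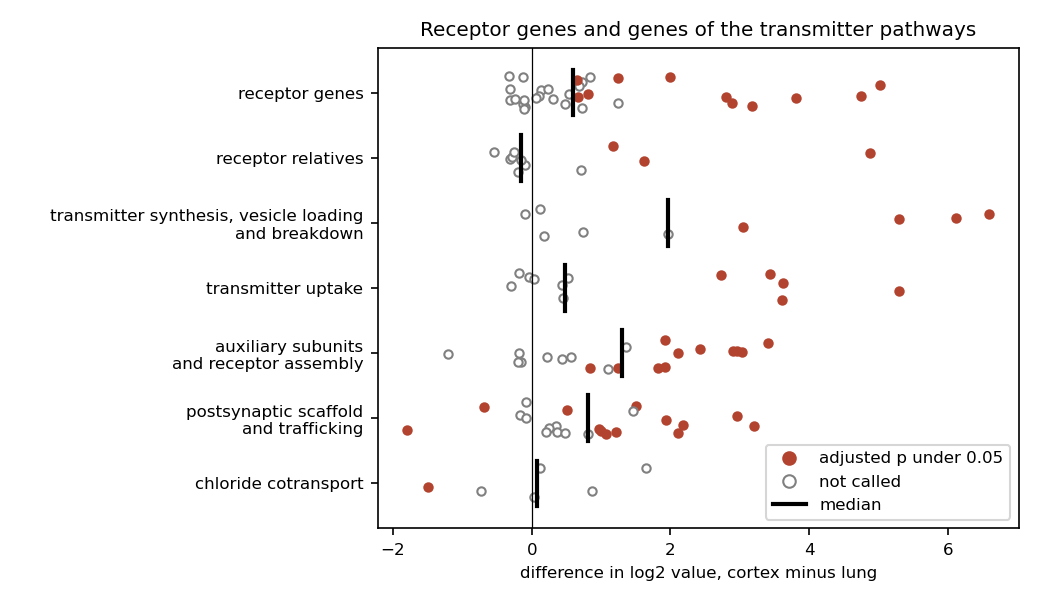
Difference in log2 value, cortex minus lung (x axis), for the 32 receptor genes and the measured genes of 6 transmitter pathway lists (y axis); each point is a gene, filled red where the adjusted p was under 0.05, spread vertically at random for legibility, and black bars are medians. Called genes lie to the right of 0 except Shank3, Homer3 and Slc12a4.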

How the data were processed

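RNA of the sorted cells (15 to 30 ng) was linearly amplified for Affymetrix Mouse Genome arrays, per the labels' protocols. The authors deposited log2 values per probe set made with RMA in the affy package, per the submitters' processing notes, with versions not given in the sources used here. RMA compresses low values, so folds against dim genes are understated, and all differences are relative to the rest of the array. The number of arrays limits the precision. All 8 columns were mapped by sample identifier, and none was dropped (0 columns).

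First the 64 control probe sets were removed. Of 45037 others, 34945 named 1 gene in the platform annotation, 932 several and 9160 none. Of a gene's single-gene probe sets the one brightest on average in all 8 arrays was used. Cortex and lung were compared over all 18193 genes with limma 3.58.1 in R 4.3.3 (lmFit, eBayes, tissue as factor, no block in the values given unless stated). P-values are two-sided, adjusted by Benjamini-Hochberg, with a call at 0.05, and intervals are at 95%. Arrays within a tissue correlated at 0.924 to 0.984. The fit was tested on simulated data. The likely pairing of cortex and lung by litter rests on the shared numbers and the count of 4 litters in the labels. In the data, deviations of same-numbered arrays from their tissue means correlated at 0.33 (72), -0.16 (22), 0.0089 (19) and 0.31 (18), and cortex 22 and 19 each correlated best with the lung array of the other number.

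The members and lists were chosen with earlier results of these data known. Values on every array are given for called members, the member of each subfamily with the highest cortex mean or, where none was called, the largest difference. In each pathway list the 2 called genes with the largest difference towards each tissue are named. Gabra5, Gabrb1, Gabrg3, Gabrr1, Gabrr2, Grik1, Grin3a, Grm2, Grm3 and Grm7 were given in full after their values were seen or for completeness. The alternatives were a filter on dim probe sets, median centring, repeated quantile normalization, array weights, a replicate block, other choices of probe set, a variance trend and leaving out each array. Leaving out lung 22 and 18 together was chosen after seeing the data.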

Additional observations from a re-analysis of the deposited data

Results flagged for a closer look

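Among 92 groups of 4 arrays examined for the genes named, 3 held an array whose gap to the nearest other as a share of the group's range passed Dixon's critical value for 4 values, which chance alone passes in about 1 group in 20. Grik3 lay at 8.07 on cortex 22, with the other cortex arrays between 9.56 and 9.69. Lhfpl4 lay at 7.37 on lung 18, with the other lung arrays between 6.23 and 6.36. Slc12a4 lay at 6.09 on cortex 18, with the other cortex arrays between 7.29 and 7.49.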

How the results depend on the processing

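Of the 11 called receptor genes, Gria1, Gria2, Gria4, Grik2, Grik3 and Gabra3 were called towards cortex in all 18 alternatives. The count called higher in cortex ran from 8 to 11 with 1 array left out, and from 9 (mean of all probe sets) to 14 (array quality weights) otherwise, with 0 towards lung throughout. The NMDA count of 1 became 2 with the replicate block and 0 with the mean of all single-gene probe sets, and ran from 1 to 2 with 1 array left out. The metabotropic count of 0 became 1 with array quality weights and 1 without lung 22 and 18. The GABA-A count of 3 ran from 1 to 3 with 1 array left out. The auxiliary list's count of 11 became 7 among genes with a mean of at least 6 and ran from 7 to 11 with 1 array left out. The scaffold list's count towards lung became 1 with the replicate block and 1 without lung 22 and 18, and ran from 1 to 2 with 1 array left out. The chloride list's count towards cortex became 1 with the dim filter, with the replicate block and with a robust variance trend, and ran from 0 to 1 with 1 array left out. The synthesis list's count towards lung became 1 without lung 22 and 18.

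Differences of 9 uncalled receptor genes changed sign under some alternative. Grin2a became 0.025 with array quality weights and 0.063 without lung 22 and 18 (-0.16 to 3.4e-05 with 1 array left out). Grin2d became 0.43 with the mean of its probe sets and 0.98 with its most variable one. Grm8 became 0.10 without lung 22 and 18. Gabrb1 became 0.40 with array quality weights, 0.17 with the mean of its probe sets and 1.35 without lung 22 and 18 (-0.88 to 0.40 with 1 array left out). Gabrg3 became -0.013 with median centring, -0.19 with the mean of its probe sets and -0.71 with its most variable one (-0.059 to 0.17 with 1 array left out). With 1 array left out, Grin3b ran from -0.23 to 0.026, Grm5 from -0.023 to 1.15, Grm7 from -0.55 to 0.73 and Gabra5 from -0.36 to 0.66. The cause was not tested.

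With the replicate block 11 receptor genes were called, with Grin3a gained (0.84 log2 units, adjusted p = 0.0228) and Gabra4 lost (adjusted p = 0.0766), and 3143 of all genes in place of 3291. Of the pathway genes Gsg1l and Slc12a5 were gained, and Neto2, Homer3 and Gphn lost. The block changed no other call of a receptor or pathway gene.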
